A study of Mus musculus with 10 samples.

Results

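The genes described here are 40 macrophage markers and phagocytic receptors of the mouse, chosen by name from the 24452 named genes in the count table. All 40 were found, 39 under their own symbol and *Lilrb4* under its current symbol *Lilrb4a*, and all 40 passed the filter on low counts that left 15543 genes tested. They were sorted into 4 resident dermal genes (*Cd163*, *Mrc1*, *Folr2*, *F13a1*), 7 pan-macrophage genes, 20 pan-myeloid genes and 9 inflammatory or lipid-associated genes. The libraries came from whole-thickness skin of C57BL/6 mice, 5 WT and 5 *Zfp36*ΔARE. *Zfp36*ΔARE is a knockin that removes a destabilizing AU-rich stretch from the 3′-UTR of *Zfp36* in the whole animal and so raises its product, the mRNA-destabilizing protein TTP, systemically. The WT mice were littermates. Both genotypes received a single dose of 400 nmol DMBA, a mutagen, on shaved back skin at 7 weeks of age, and then 10 nmol TPA, a phorbol ester that promotes tumors, 2 times a week for 20 weeks. The biopsies were treated skin without tumor, and untreated skin was not analysed here.

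Macrophages engulf particles through several families of surface receptor. Fc receptors bind antibody-coated targets, integrins bind complement-coated ones, scavenger receptors and C-type lectins bind modified lipids and sugars, and clearance receptors such as MERTK bind dying cells. The engulfed cargo is then degraded by lysosomal proteases, lysozyme and the oxidants made by NADPH oxidase. In the dermis, long-lived resident macrophages carry CD163, the mannose receptor MRC1 and the folate receptor FOLR2, while macrophages newly derived from monocytes take on inflammatory or lipid-handling genes.

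Myeloid genes are commonly driven by PU.1, the product of the member gene *Spi1*, which binds purine-rich sites that hold GAGGAA. RefSeq start sites were matched for 28 of the 40 genes, and GAGGAA, searched on both strands from 250 bases before to 50 bases after the start, was present in 16 of them (57.1%). It was present in 30.8% of 11768 tested genes with a promoter and in 28.3% of all 32851 promoters of that length. The windows below are shown because they hold these letters within 60 bases before the start of genes that were lower in *Zfp36*ΔARE skin. They are on GRCm38.p6, 5′ to 3′ on the strand of the gene, and capitals mark GAGGAA or its complement TTCCTC.
*Mrc1* (chr2:14229367-14229396, plus strand): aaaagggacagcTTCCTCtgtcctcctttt
*Itgam* (chr7:128062613-128062642, plus strand): tctcatagctttTTCCTCatacttctctgt
*Fcgr1* (chr3:96294007-96294036, minus strand): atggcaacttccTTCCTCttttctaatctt
*Fcgr3* (chr1:171059392-171059421, minus strand): gagtccatttccTTCCTCtttttgtagttc
*Laptm5* (chr4:130913266-130913295, plus strand): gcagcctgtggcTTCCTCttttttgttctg
*Stab1* (chr14:31168654-31168683, minus strand): gctgatacgcagGAGGAAatcctggtgggt
The longer GAGGAAGT, which contains GAGGAA, was found in 2 of the 28 (7.14%) and in 3.63% of the tested genes. TGANTCA was found in 6 of the 28 (21.4%) and in 7.07% of the tested genes. With C or G at N it is the AP-1 site through which phorbol esters act on many promoters. In *Cybb*, *Ms4a7* and *Trem2* the match had A or T at N. *Cd68*, which was lower in *Zfp36*ΔARE skin, had G at N at positions -149 and -24 from the start, in windows not shown. *Folr2*, which was also lower, and *Gpnmb*, which was higher, had C at N, and capitals mark the AP-1 letters below.
*Folr2* (chr7:101845388-101845416, minus strand): actagaccaaaTGACTCAtgggagcccag
*Gpnmb* (chr6:49036515-49036543, plus strand): ccaggggcaagTGACTCAtgagcacgagt
These matches describe letters in a window and say nothing of whether a factor was bound. In the annotated 3′-UTRs, where TTP binds AU-rich elements, ATTTA was present in 20 of 39 members with a 3′-UTR (51.3%) and in 66.4% of 14299 tested genes. The longer TTATTTATT was present in 0 of the 39 and in 7.26% of the tested genes. The median 3′-UTR was 493 bases long in the members and 994 bases in the tested genes.

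Total counts ran from 21638369 to 32583189 in WT and from 19595024 to 36419553 in *Zfp36*ΔARE libraries. *Zfp36* itself averaged 2152 ± 277 normalized counts in the 5 WT libraries and 5427 ± 766 in the 5 knockin libraries (± SD; log2 fold change 1.33, standard error 0.12, adjusted p = 0.00195), without overlap. A normalized count is a count scaled by edgeR's TMM factors to a common library size. Replicates 2 to 5 of *Zfp36*ΔARE held between 3349 and 4262 Y-linked counts, while the 5 WT libraries and *Zfp36*ΔARE replicate 1 held at most 1, so genotype and sex cannot be told apart except through that replicate. Hair shaft scores, given as mean log2(CPM + 1) of 13 markers, were 5.43 in WT replicate 1, 2.68 in WT replicate 3, 7.73 to 8.11 in the other WT libraries and 8.76 to 10.1 in *Zfp36*ΔARE. Skeletal muscle scores were 8.98 to 11.3 in WT and 8.10 to 9.30 in *Zfp36*ΔARE, and adipocyte scores 6.57 to 7.54 and 5.95 to 6.17. Their part in the macrophage differences was not tested other than by the fits named beside each result. Hair shaft and adipocyte scores did not overlap between the genotypes, so fits with these scores cannot tell score from genotype. In whole skin, fewer macrophages and less RNA of these genes per macrophage cannot be told apart.

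Most of the macrophage genes were lower in *Zfp36*ΔARE skin. Genes were called where edgeR's quasi-likelihood test gave an adjusted p under 0.05 and the fold change exceeded 2. By this rule 27 of the 40 were lower (67.5%, against 6.64% of all tested genes) and 2 were higher (*Gpnmb* and *Arg1*; 1.67% of all tested genes). By adjusted p alone 32 were lower (19.1% of all tested genes) and 3 higher (15.3%). The median log2 fold change was -1.17 over the 40 genes and 0.0076 over all tested genes. In 26 genes every *Zfp36*ΔARE library was below every WT library (11.9% of all tested genes), and in 2 every one was above (11.2%). The 40 genes together made up 0.210% to 0.350% of the counts of a WT library and 0.144% to 0.187% of a *Zfp36*ΔARE one.

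**Figure D1:**
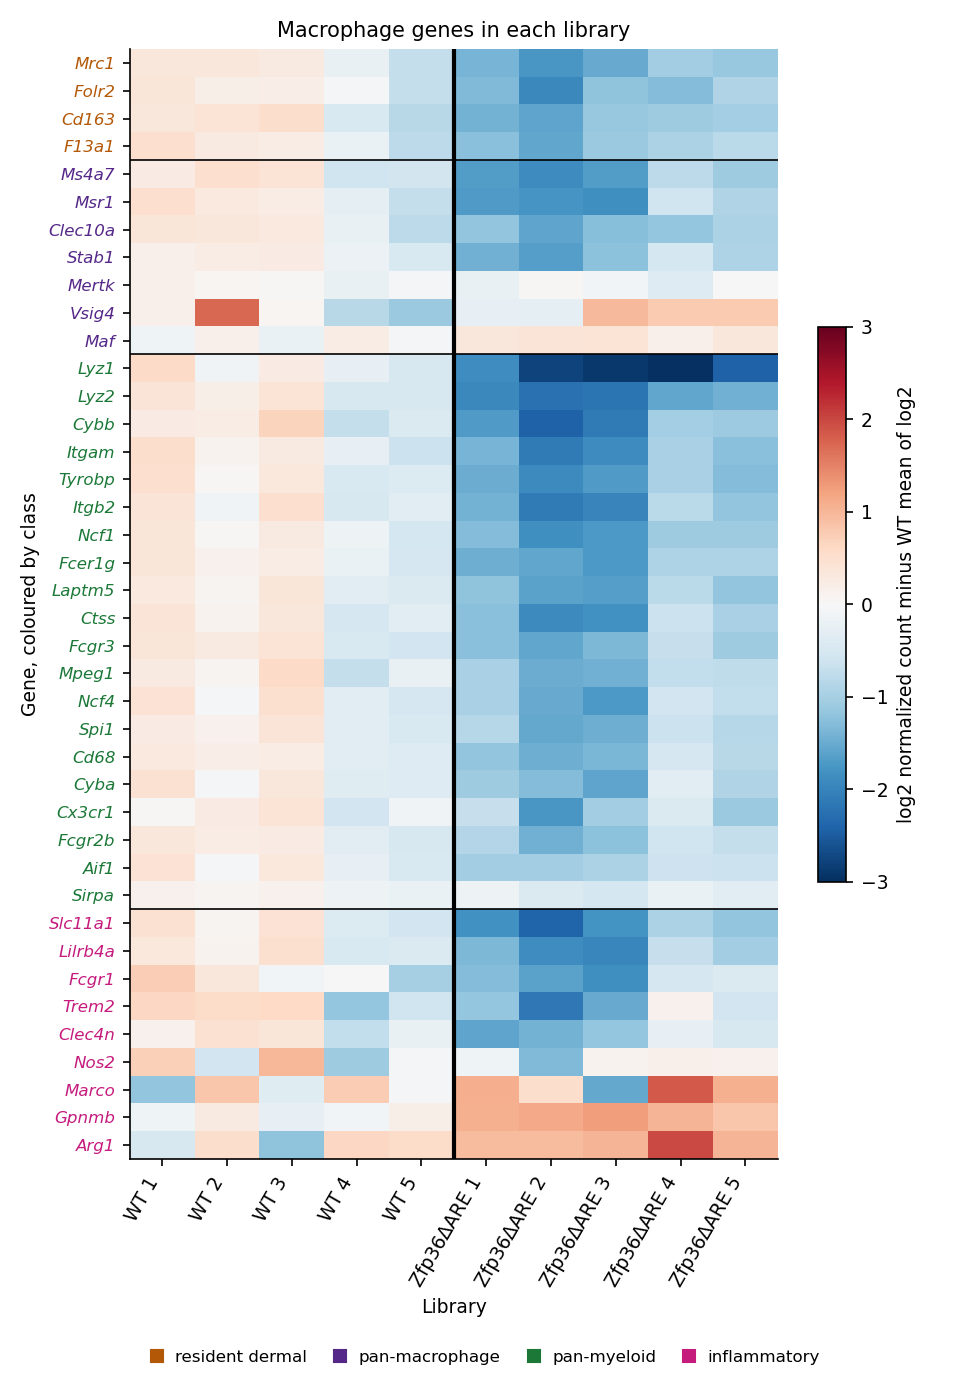
Each cell gives the log2 normalized count of a gene (vertical axis, coloured by class and ordered by fold change within it) in a library (horizontal axis), minus the mean of log2 in WT. Blue cells fill most of the 5 *Zfp36*ΔARE columns, with *Maf*, *Gpnmb* and *Arg1* in red and *Vsig4*, *Marco* and *Nos2* mixed, and among the WT columns replicates 4 and 5 are the palest or bluest for most genes.

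The 2 groups were not uniform within. In 26 of the 27 genes called lower, WT replicates 4 and 5 were the lowest of WT, and in 24 of the 27, *Zfp36*ΔARE replicates 4 and 5 were the highest of their group. The highest *Zfp36*ΔARE library was below WT replicates 4 and 5 in 24 of the 27 genes, but these were called with the same libraries in the fit. Over all 40 genes, 26 had every *Zfp36*ΔARE library below every WT library, against 11.9% of all tested genes. *Zfp36*ΔARE replicate 1 shared the absence of Y-linked counts with WT. It was below every WT library in 32 of the 40 genes (30.4% of all tested genes). The same held for 27 of the 27 called lower, but these were called with that library in the fit. With that library alone set against the 5 WT, 28 of the 40 passed an unadjusted p of 0.05, beside 15.9% of all tested genes, and 0 were called, as were 0% of all tested genes. The median log2 fold change was -1.31. The spread in that fit came from the WT libraries, and the lone knockin library was assumed to vary like them. Without WT replicates 1 and 3, the libraries with the lowest hair shaft scores, 17 of the 40 were called, all lower (2.14% of all tested genes), with a median of -0.95.

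The 4 resident dermal genes fell together, each to between 38.0% and 44.0% of its WT mean, and in each the groups did not overlap. *Cd163*, the scavenger receptor for haptoglobin-bound hemoglobin, stood at 3391, 3516, 3827, 1959 and 1509 normalized counts in WT replicates 1 to 5 and at 1000.4, 897, 1209, 1271 and 1320.0 in *Zfp36*ΔARE replicates 1 to 5. WT replicates 1, 2 and 3 were far above the rest, and WT replicate 5 was the nearest to the knockin values. The difference was -1.32 on the log2 scale (standard error 0.25, adjusted p = 0.00724). *Mrc1*, the mannose receptor that takes up glycoproteins, stood at 6369, 6289.9, 5977, 4291 and 3019 in WT and at 1914, 1477, 1758, 2431 and 2285 in *Zfp36*ΔARE libraries (-1.40, standard error 0.22, adjusted p = 0.00474). *Folr2*, the folate receptor beta, stood at 1462, 1271, 1313, 1112 and 692 in WT and at 454, 299, 494, 462 and 611 in *Zfp36*ΔARE libraries (-1.34, standard error 0.22, adjusted p = 0.00531). For both genes WT replicate 5 was again the lowest of WT and stayed above the highest *Zfp36*ΔARE library. *F13a1*, the A subunit of coagulation factor XIII, stood at 7222, 6161, 5962, 4432 and 2937 in WT and at 2142, 1730.0, 2351, 2642 and 2899.7 in *Zfp36*ΔARE libraries (-1.18, standard error 0.23, adjusted p = 0.00753). Here the groups all but touched, since the lowest WT and the highest *Zfp36*ΔARE library were nearly equal. An antisense transcript covers 63.1% of the annotated exonic bases of *Folr2*, and whether the counting used strand is not stated, so reads of the antisense partner cannot be told apart from those of *Folr2*. When single libraries were left out, the 4 genes remained called in 10 of 10 fits each, and without WT replicates 1 and 3 together *F13a1* was no longer called.

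**Figure D2:**
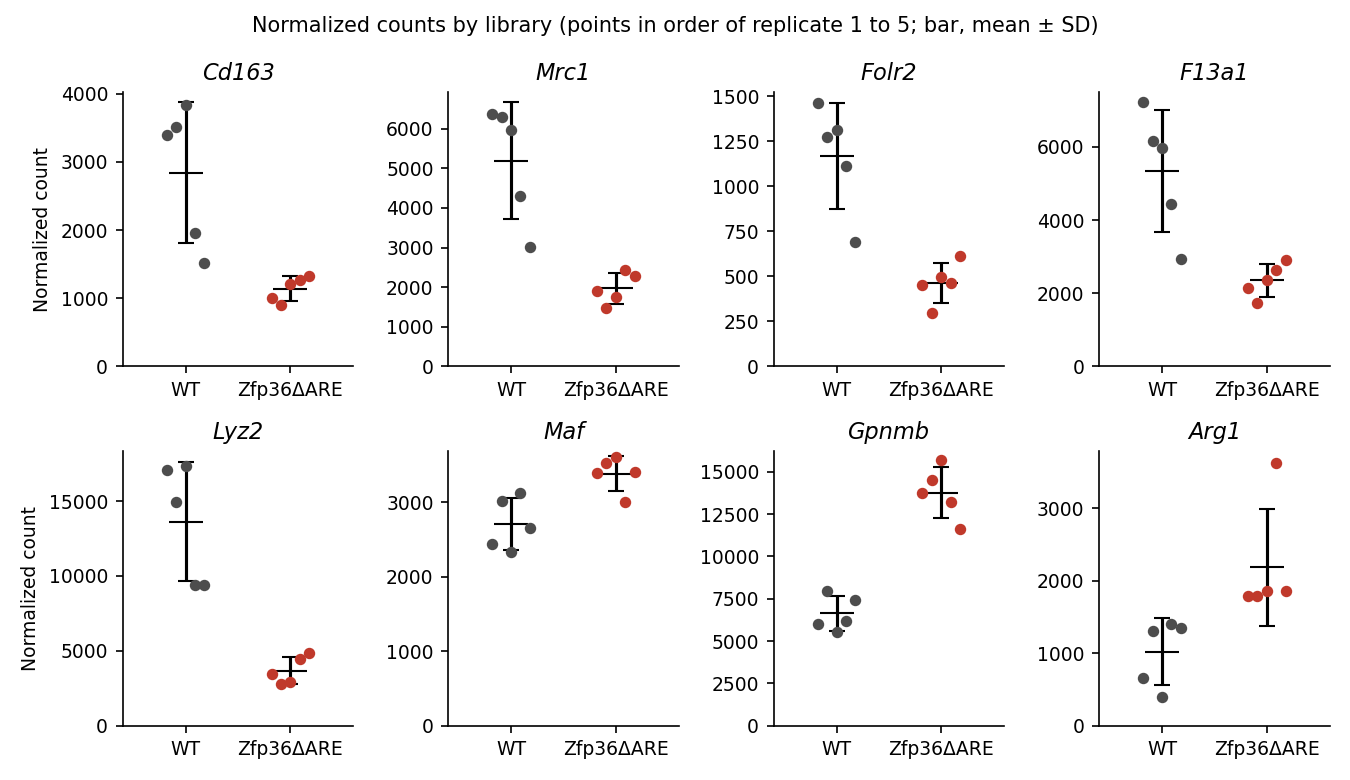
Points are normalized counts (vertical axis, from 0) of single libraries in replicate order, and horizontal bars with whiskers give the mean ± SD of each group of 5. The 4 resident dermal genes and *Lyz2* are lower in every *Zfp36*ΔARE library, *Gpnmb* and *Arg1* are higher in every one, and for *Maf* the groups overlap at 2995 against 3116.

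Among the other scavenger receptors and lectins, *Stab1* and *Msr1* fell, as did *Clec10a*, the galactose-type lectin of dermal macrophages. *Stab1*, a receptor that clears modified lipoproteins and matrix fragments, stood at 4276, 4481, 4495, 3398 and 2769 normalized counts in WT replicates 1 to 5 and at 1402, 1223, 1626, 2668 and 1995 in *Zfp36*ΔARE replicates 1 to 5. *Zfp36*ΔARE replicate 4 came close to WT replicate 5 and the groups did not overlap (log2 fold change -1.12, standard error 0.22, adjusted p = 0.00751). *Msr1* and *Clec10a* fell by 1.35 and 1.28 on the log2 scale, and for *Msr1* the groups overlapped. *Marco*, a scavenger receptor of inflammatory macrophages, was near the limit of detection, at 2.76, 11.3, 4.88, 10.7 and 6.19 in WT and at 13.5, 9.05, 2.20, 22.7 and 13.2 in *Zfp36*ΔARE libraries. Both groups held high and low libraries (log2 fold change 0.70, standard error 0.53, adjusted p = 0.309). *Clec4n*, which encodes the fungal receptor dectin-2, stood at 249.6, 313, 298, 139 and 198 in WT and at 77.2, 86.0, 103, 192 and 165 in *Zfp36*ΔARE libraries. Its libraries overlapped at WT replicate 4, and it passed the adjusted p but not the fold (-0.95, standard error 0.30, adjusted p = 0.0336). *Clec10a* shares 9.34% of its 50-base stretches with its paralog *Mgl2*, so reads of that pair may not be fully separated.

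The activating Fc receptors and their shared adaptors fell. *Fcer1g*, the gamma chain that signals for them, fell by 1.31 on the log2 scale, *Fcgr3* by 1.22 and *Fcgr1*, the high-affinity receptor, by 1.15. The groups overlapped for *Fcgr1*, and it kept its call in 5 of 10 fits with a library left out. *Tyrobp*, the adaptor DAP12 that signals for TREM2 and related receptors, stood at 1987, 1448, 1763, 1037 and 1069 normalized counts in WT replicates 1 to 5 and at 501, 378, 433, 717 and 578 in *Zfp36*ΔARE replicates 1 to 5. Every knockin value lay well under the lowest WT value (log2 fold change -1.49, standard error 0.22, adjusted p = 0.00446). *Fcgr2b*, the inhibitory Fc receptor, stood at 2185, 2036, 2059.7, 1402 and 1236 in WT and at 939.7, 641, 736, 1154 and 1063 in *Zfp36*ΔARE libraries. The groups did not overlap, and it was left uncalled only by the fold (-0.98, standard error 0.20, adjusted p = 0.00895); without WT replicate 4 or 5, or *Zfp36*ΔARE replicate 4 or 5, it was called, at up to -1.08. *Fcgr3* shares 12.3% of its 50-base stretches with *Fcgr2b*, so their counts are not fully separate. *Trem2*, a lipid-sensing receptor, stood at 258, 247, 254, 74.7 and 111 in WT and at 75.7, 38.0, 59.3, 183 and 113 in *Zfp36*ΔARE libraries. WT replicates 4 and 5 lay within the range of the knockin libraries (-1.03, standard error 0.46, adjusted p = 0.104). Without *Zfp36*ΔARE replicate 4, *Trem2* was called lower at -1.41 (adjusted p = 0.0396).

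The β2 integrin chains, which together form complement receptor 3, fell as a pair. *Itgb2* stood at 2060.2, 1454, 2209.8, 1125 and 1267 normalized counts in WT replicates 1 to 5 and at 586, 359, 394, 896 and 689.6 in *Zfp36*ΔARE replicates 1 to 5 (log2 fold change -1.48, standard error 0.28, adjusted p = 0.00735). *Itgam*, which encodes CD11b, fell by 1.52 (standard error 0.26, adjusted p = 0.00547), and 68.7% of its exonic bases are also annotated to *Gm49368*, a protein-coding gene on the same strand that has no entry in the count table. In both genes *Zfp36*ΔARE replicate 4 was the highest of its group and remained under every WT library. *Cx3cr1*, the fractalkine receptor of monocytes and tissue macrophages, had few counts, at 99.5, 115, 128, 65.0 and 90.8 in WT and 59.9, 29.0, 47.2, 72.1 and 44.8 in *Zfp36*ΔARE libraries. WT replicate 4 lay below *Zfp36*ΔARE replicate 4, and the gene passed the adjusted p but not the fold (-0.98, standard error 0.26, adjusted p = 0.0178). *Aif1*, which encodes the actin-binding protein IBA1, stood at 319.6, 229, 297, 201 and 172 in WT and at 115, 115, 123, 154 and 152 in *Zfp36*ΔARE libraries. The groups did not overlap and the fold was under 2 (-0.89, standard error 0.18, adjusted p = 0.00872).

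The microbicidal genes held the largest falls. *Lyz2*, the lysozyme of macrophages and neutrophils, had the highest count per kilobase of the 40 genes in WT, 12878 normalized counts per kilobase, and 3482 in *Zfp36*ΔARE skin. It stood at 17037, 14929.5, 17325, 9399.6 and 9366 normalized counts in WT replicates 1 to 5 and at 3432, 2783, 2890.2, 4441 and 4858 in *Zfp36*ΔARE replicates 1 to 5. Even WT replicates 4 and 5 had close to double the highest knockin value (log2 fold change -1.89, standard error 0.23, adjusted p = 0.00369). Its neighbour *Lyz1*, the lysozyme best known from Paneth cells, stood at 935, 581, 743, 524 and 451 in WT and at 172, 91.4, 84.6, 45.4 and 116 in *Zfp36*ΔARE libraries (-2.65, standard error 0.32, adjusted p = 0.00369). The genes share 16.1% of the 50-base stretches of *Lyz1*, so some *Lyz1* counts may be *Lyz2* reads. Of the NADPH oxidase, the membrane subunit *Cybb* stood at 1313, 1294, 1764, 677 and 816 in WT and at 340.2, 207, 256, 547 and 517 in *Zfp36*ΔARE libraries (-1.66, standard error 0.33, adjusted p = 0.00820). Its libraries did not overlap, and the other oxidase genes fell by 1.41 (*Ncf1*), 1.09 (*Ncf4*) and 1.01 (*Cyba*) on the log2 scale. *Cyba* overlapped between the groups and kept its call in 5 of 10 fits with a library left out, and *Ncf4* in 6 of 10. A gene on the opposite strand overlaps 11.1% of the exonic bases of *Ncf1*. *Slc11a1*, the phagosomal metal transporter NRAMP1, fell by 1.61 (standard error 0.29, adjusted p = 0.00681).

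Of the lysosomal and endosomal genes, *Ctss*, *Laptm5*, *Mpeg1* and *Cd68* fell by between 1.06 and 1.29 on the log2 scale without overlap. *Ctss* encodes the cathepsin that trims the invariant chain, *Mpeg1* the pore-forming perforin-2, and *Cd68* a heavily glycosylated lysosomal membrane protein. The call was lost for *Cd68* without WT replicate 1 or *Zfp36*ΔARE replicate 2 or 3 (-0.97 to -0.99) and for *Mpeg1* without WT replicate 3 (-0.95). *Gpnmb*, a glycoprotein of lysosomes and melanosomes, went the other way. It stood at 6026, 7979.7, 5529, 6202 and 7457 normalized counts in WT replicates 1 to 5 and at 13766, 14547, 15709.7, 13229 and 11617 in *Zfp36*ΔARE replicates 1 to 5. Every knockin library was well above every WT library (log2 fold change 1.05, standard error 0.12, adjusted p = 0.00369), and without WT replicate 3 the difference was 0.99, just under the fold required. Pigment cells also express *Gpnmb*, and of 10 pigment cell markers, a list added after the values were seen, 7 were called higher, with a summed level of 5173 to 16073 in WT and 16417 to 29079 in *Zfp36*ΔARE libraries and no marker at 0 in all libraries. Their part in the *Gpnmb* difference was not tested.

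Of the clearance and inhibitory receptors, *Mertk*, *Vsig4* and *Sirpa* stayed under the fold required, and *Lilrb4a* fell. *Mertk*, the receptor for dying cells, stood at 864, 809, 799, 665 and 756 normalized counts in WT replicates 1 to 5 and at 664, 795, 730.2, 595 and 786 in *Zfp36*ΔARE replicates 1 to 5. The groups overlapped nearly throughout (log2 fold change -0.12, standard error 0.10, adjusted p = 0.329). *Vsig4*, a complement receptor of resident macrophages, had 24.9, 74.3, 23.2, 12.6 and 10.3 in WT and 18.7, 18.1, 43.9, 38.7 and 38.2 in *Zfp36*ΔARE libraries, and its WT mean rested on replicate 2 (0.07, standard error 0.53, adjusted p = 0.929). *Sirpa*, the receptor of the CD47 signal that restrains engulfment, stood at 3344, 3213, 3320.2, 2715 and 2656 in WT and at 2717, 2238, 2120.5, 2644 and 2399.9 in *Zfp36*ΔARE libraries. It was lower by adjusted p and overlapped (-0.33, standard error 0.09, adjusted p = 0.0236). *Lilrb4a*, an inhibitory receptor of myeloid cells, fell by 1.36 (standard error 0.27, adjusted p = 0.00820), but shares 29.9% of its 50-base stretches with its paralog *Lilr4b* and 35.3% of its exonic bases with *Gm49339*, a protein-coding gene of the same strand without an entry in the count table. *Ms4a7*, a membrane protein of resident macrophages, stood at 554, 659, 614, 309.6 and 316 in WT and at 147, 127, 146, 271 and 223 in *Zfp36*ΔARE libraries. The nearest libraries were WT replicate 4 and *Zfp36*ΔARE replicate 4, without overlap (-1.43, standard error 0.28, adjusted p = 0.00794).

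Of the transcription factors, *Spi1* fell and *Maf* did not. *Spi1*, which encodes PU.1, stood at 414, 380.4, 451, 279 and 254 normalized counts in WT replicates 1 to 5 and at 193, 119.5, 125, 220.3 and 193 in *Zfp36*ΔARE replicates 1 to 5 (log2 fold change -1.07, standard error 0.22, adjusted p = 0.00852). The groups did not overlap, and the change fell just short of the fold required without WT replicate 3 (-0.97) or *Zfp36*ΔARE replicate 2 (-0.96) or 3 (-0.98). *Maf*, a factor of resident macrophages that keratinocytes and other skin cells also transcribe, stood at 2442, 3015, 2326, 3116 and 2646 in WT and at 3383, 3523, 3605, 2995 and 3402 in *Zfp36*ΔARE libraries. It was higher by adjusted p, with an overlap of WT replicates 2 and 4 with *Zfp36*ΔARE replicate 4 (0.32, standard error 0.09, adjusted p = 0.0232).

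The genes of arginine use, which serve as textbook markers of opposite macrophage states, behaved unlike the receptors. *Arg1*, arginase of alternatively activated macrophages and of some keratinocytes, stood at 658, 1313, 397, 1402 and 1342 normalized counts in WT replicates 1 to 5 and at 1783, 1783, 1861, 3625 and 1863 in *Zfp36*ΔARE replicates 1 to 5. Every *Zfp36*ΔARE library was higher than every WT library, WT replicates 1 and 3 were the lowest, and replicate 4 of *Zfp36*ΔARE stood far above the rest (log2 fold change 1.09, standard error 0.35, adjusted p = 0.0372). With a library left out it kept its call in 4 of 10 fits, and it lost it without WT replicate 1 or 3 or *Zfp36*ΔARE replicate 1, 2, 3 or 4 (log2 fold change 0.83 to 1.16, of a range of 0.83 to 1.23 over the 10 fits). Without WT replicates 1 and 3 together it was at 0.69 (adjusted p = 0.0901). Keratinocyte markers are given beside it, the median log2 fold change being -0.24 for 10 basal genes and 0.036 for 9 differentiation and stress genes, the second list added after the values were seen. *Nos2*, the inducible nitric oxide synthase of classically activated macrophages, had 33.2, 13.7, 40.3, 9.71 and 19.6 in WT and 18.7, 8.15, 22.0, 22.7 and 22.4 in *Zfp36*ΔARE libraries. At these counts a difference was not detectable (-0.31, standard error 0.42, adjusted p = 0.580).

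The resident dermal genes were set beside the broader classes to see whether they moved more or less than myeloid genes at large. Their median log2 fold change was -1.33, with 4 of 4 called lower, against -1.25 for the pan-myeloid genes, with 16 of 20 called lower and 20 of 20 lower by adjusted p. The pan-macrophage genes had a median of -1.12, with 4 of 7 called lower. That class held other genes of resident macrophages, of which *Ms4a7* fell (-1.43) while *Maf* (0.32) and *Vsig4* (0.07) did not. Within a library, the mean log2 normalized count of the resident genes exceeded that of the pan-myeloid genes by 1.09 to 1.64 in WT and by 1.24 to 1.81 in *Zfp36*ΔARE skin, so the ranges overlapped. The inflammatory class had a median of -0.95, with 3 of 9 called lower and 2 higher, and split into genes that fell with the rest (*Slc11a1*, *Lilrb4a*, *Fcgr1*), a pair that rose (*Gpnmb*, *Arg1*), *Trem2* and *Clec4n* at about -1 without a call, and the scarce *Marco* and *Nos2*. The resident genes exceeded the inflammatory ones by 3.16 to 3.92 in WT and by 2.31 to 3.22 in *Zfp36*ΔARE libraries, ranges that met only through WT replicate 5 and *Zfp36*ΔARE replicate 3. The inflammatory mean includes *Gpnmb*, which pigment cells also express, and *Arg1*, a gene of alternatively activated macrophages and some keratinocytes. It therefore does not stand for inflammatory macrophages alone. All class means weight each gene equally and were not tested, since the classes were drawn with results known.

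**Figure D3:**
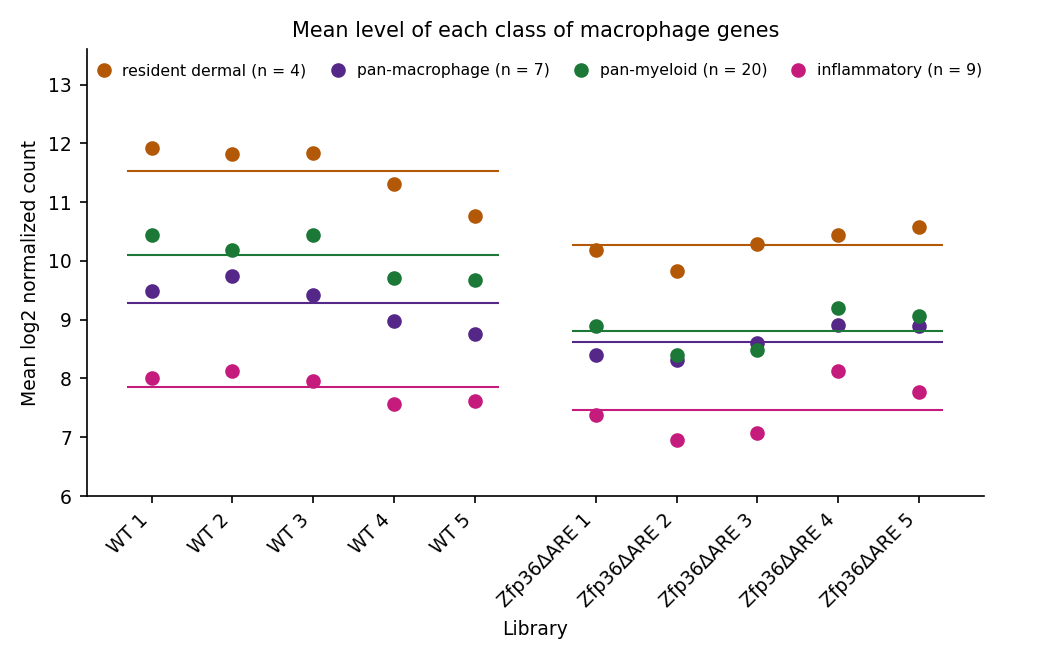
Points are the mean log2 normalized count of each class (vertical axis) in each library (horizontal axis), and lines are the mean over the 5 libraries of a group. Resident dermal and pan-myeloid means are lower in every *Zfp36*ΔARE library than in every WT library. Pan-macrophage means overlap, since WT replicate 5 (8.76) is below *Zfp36*ΔARE replicates 4 (8.92) and 5 (8.88). The inflammatory class also overlaps, with *Zfp36*ΔARE replicate 4 at 8.13, level with the highest WT library.

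To ask how the genes stood among leukocytes, counts were refitted with the count of *Ptprc*, the pan-leukocyte phosphatase CD45, as the size of each library. *Ptprc* itself fell from 1497 ± 378 to 736 ± 187 normalized counts (± SD over 5 libraries; log2 fold change -1.02, standard error 0.21, adjusted p = 0.00885), without overlap. Against it, 10 of the 40 genes differed at an adjusted p under 0.05. Of these 3 were lower and 7 higher, while 0.708% of all tested genes were lower and 78.3% higher, since most genes did not fall with *Ptprc*. The median log2 difference was -0.12 over the 40 genes and 1.04 over all tested genes. The sign of the members' median depended on the reference gene. With *Csf1r*, the receptor for macrophage colony-stimulating factor, in place of *Ptprc*, the median was 0.33 over the 40 genes and 1.48 over all tested genes, and 1 member was lower and 9 were higher, beside 0.187% and 89.9% of all tested genes. Standard errors were close to 0.28 for most members, because the error of the single reference gene is shared by all of them. The 4 resident genes lay between -0.34 (*Mrc1*) and -0.10 (*F13a1*), with adjusted p from 0.261 to 0.750. *Lyz1* (-1.60, adjusted p = 8.60e-07), *Lyz2* (-0.83, adjusted p = 0.00793) and *Cybb* (-0.62, adjusted p = 0.0352) were lower relative to *Ptprc*. Relative to *Csf1r*, *Lyz1* was lower (-1.10, adjusted p = 0.000353), while *Lyz2* (-0.38, adjusted p = 0.225) and *Cybb* (-0.18, adjusted p = 0.555) did not pass. *Cybb* also lost the adjusted p with the replicate number as a block (0.105) and without WT replicate 1, 2 or 3 or *Zfp36*ΔARE replicate 1 or 2 (0.0548 to 0.115). The ratio of *Lyz2* to *Ptprc* counts was 10.2, 9.82, 8.57, 8.36 and 8.21 in WT replicates 1 to 5 and 3.91, 4.77, 5.88, 4.86 and 5.98 in *Zfp36*ΔARE replicates 1 to 5. Every knockin ratio was below every WT ratio for *Lyz2*, *Lyz1* and *Itgam* (3 of the 40 genes, against 0.367% of all tested genes). Higher relative to *Ptprc* were *Gpnmb* (2.10), *Arg1* (1.97), *Marco* (1.59), *Maf* (1.35), *Vsig4* (1.20), *Mertk* (0.95) and *Sirpa* (0.70), in the direction of the tested genes at large. For *Gpnmb*, *Arg1*, *Maf* and *Sirpa* every knockin ratio was above every WT ratio (4 of the 40 genes, against 62.9% of all tested genes). With *Zfp36*ΔARE replicate 1 alone against the 5 WT libraries, the median log2 difference relative to *Ptprc* was -0.53 over the 40 genes.

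**Figure D4:**
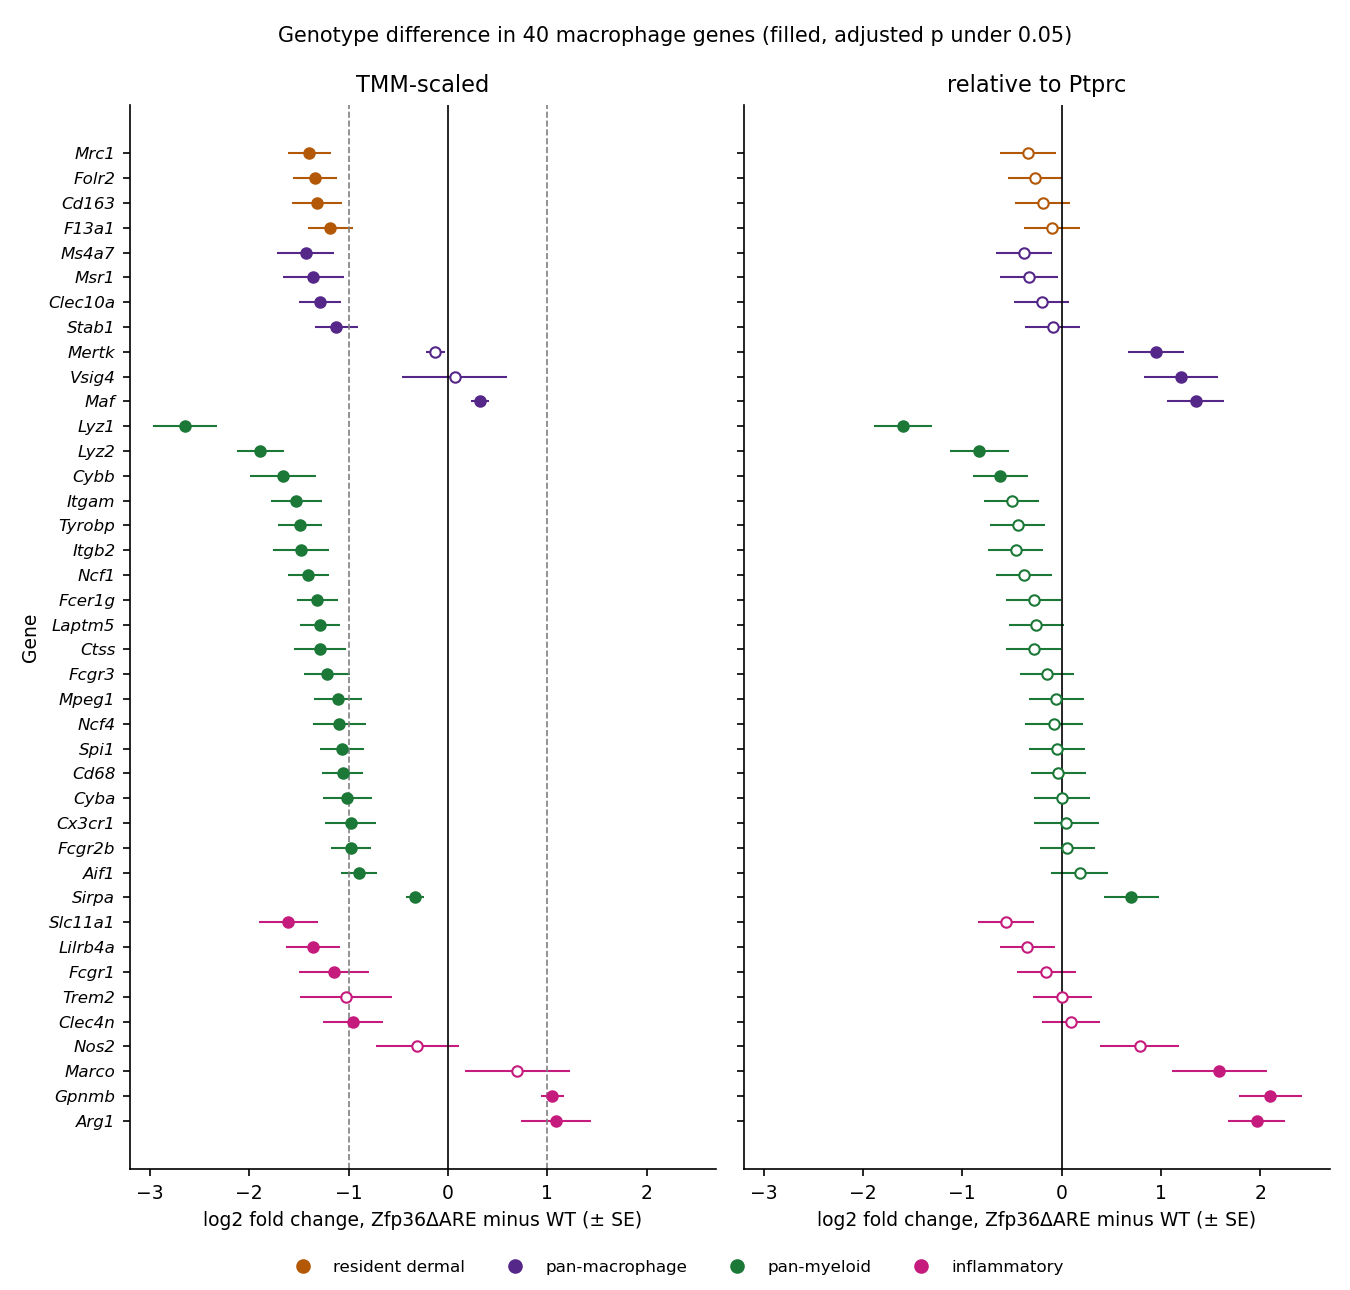
Points with whiskers give the log2 fold change ± SE of each gene, *Zfp36*ΔARE minus WT, scaled by TMM (left) and by *Ptprc* counts (right), filled where the adjusted p was under 0.05 and coloured by class. Dashed lines mark a fold of 2. Most genes sit near -1.2 on the left and near 0 on the right, where *Lyz1*, *Lyz2* and *Cybb* remain lower and 7 genes are higher.

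The fall extended to many macrophage genes outside the 40, in lists that were also chosen with earlier results of these data known. Of all tested genes, 6.64% were called lower and 1.67% higher. Of 24 other macrophage identity genes, 16 were called lower (median -1.26), among them *Csf1r*, the receptor for macrophage colony-stimulating factor, which went from 4715 ± 1325 to 1663 ± 408 normalized counts (± SD over 5 libraries; log2 fold change -1.50, adjusted p = 0.00446), and *Retnla* (-1.13, adjusted p = 0.0432). Of 35 tested phagocytic receptor and signalling genes, 20 were called lower (median -1.05), led in abundance by the lipid receptor *Cd36* (-1.16, adjusted p = 0.00671) and the cytoskeletal regulator *Dock2* (-1.17, adjusted p = 0.00701). *Cd36* was highest in WT replicate 3, at 13131 normalized counts. That library also had the highest adipocyte and skeletal muscle scores, and the part of those tissues in the *Cd36* difference was not tested. Phagosome and lysosome genes, which most cells use, differed from these by their counts: of 24, 3 were called lower and 1 higher, with a median of -0.037. *Unc93b1*, the chaperone of endosomal Toll-like receptors, fell (-1.23, adjusted p = 0.00400), and *Slc40a1*, the iron exporter ferroportin, rose (1.15, adjusted p = 0.0328). *Slc40a1* stood at 2262, 5602, 1315, 5557 and 4867 in WT replicates 1 to 5 and at 6935 to 10206 in *Zfp36*ΔARE libraries. WT replicates 1 and 3, its lowest, also had the lowest hair shaft scores, and the part of hair content in its difference was not tested. Of 21 tested polarization genes, 3 were called lower (median -0.34), including *Irf4* (-1.33, adjusted p = 0.00369) and *Retnla*, which stands in both lists.

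Other cell types moved with the macrophage genes. Mast cell markers had 9 of 12 genes called lower (median -1.67, summed level 6597 to 16483 in WT and 3646 to 4619.7 in *Zfp36*ΔARE), skeletal muscle 13 of 14 (-1.51), adipocytes 7 of 12 (-1.06), endothelial cells 5 of 10 (-0.98; 6293 to 13828 and 3937 to 5046) and fibroblasts 3 of 10 (-0.69). Hair shaft genes had a median of 2.27, with 3 of 13 called higher. No marker of these lists was at 0 in all libraries. With a score of one of these tissues added to the fit as a covariate, the members' median log2 fold change was -0.82 for hair shaft, -1.16 for skeletal muscle and -0.86 for adipocytes. Of the 40, 27, 33 and 7 passed an unadjusted p of 0.05 in these fits, beside 14.3%, 17.5% and 8.81% of all tested genes. The numbers called were 0, 0 and 0, beside 0.0515%, 0.0129% and 0% of all tested genes. Because hair shaft and adipocyte scores did not overlap between the genotypes, the fits with them cannot tell score from genotype.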

How the data were processed

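RNA was sequenced from 5 WT and 5 *Zfp36*ΔARE skin biopsies. The authors removed read pairs of mean quality under 20, aligned the rest to mm10 with STAR 2.5.2b, and counted fragments per gene with featureCounts (Subread 1.5.0-p1). The deposited counts are not normalized, and how multi-mapping fragments and strand were treated is not given in the sources used here. The 2 unnamed features held 7.38e-05% of the counts and were left out.

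From the counts, edgeR 4.0.16 (R 4.3.3) computed TMM factors, filtered with filterByExpr and fitted the quasi-likelihood model with robust dispersions and genotype as the only term, with Benjamini-Hochberg adjustment over 15543 genes. The common biological coefficient of variation was 21.6%. Normalized counts are counts divided by the effective (TMM) library size and multiplied by its mean over libraries, and values per kilobase use the deposited gene length. A second fit used *Ptprc* counts as library sizes. On simulated data with 200 changed genes, the main test recovered 93.5% of them and 0% of its calls were false. The fit with a reference gene as library size recovered 94.5% with 0.526% false. Recovery of genes near a fold of 2 was not tested, and the median log2 fold change of the 40 members was -1.17. A reference gene that itself fell, as *Ptprc* did, was not tested. The alternatives were DESeq2 1.42.0, limma-voom (limma 3.58.1), other scalings, filters and dispersions, a replicate block, glmTreat, tissue scores as covariates and libraries left out. Libraries of a group differed by far more than counting noise, and no 2 were duplicates. Nothing in the labels says which libraries came from which cage or litter, so p-values measure the spread between these libraries. Members and lists were chosen with earlier results of these data known. Named with all library values were the resident genes, the most abundant member of each role, every member not called lower and, after their values were seen, *Lyz1* and *Spi1*; of the other lists, the 2 called genes with the most counts. Gene overlaps, 50-base stretches and 3′-UTRs were taken from GENCODE on GRCm38, and promoters from RefSeq on GRCm38.p6.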

Additional observations from a re-analysis of the deposited data

Results flagged for a closer look

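Over the 40 genes in each of the 2 groups, 80 sets of 5 libraries were examined for a single library far from the rest, and 3 held one, where chance gives about 4. *Arg1* was at 3625 normalized counts in *Zfp36*ΔARE replicate 4 and between 1783 and 1863 in the other 4 (gap to the nearest, 0.956 of the range). *Vsig4* was at 74.3 in WT replicate 2 and between 10.3 and 24.9 in the other 4 (gap 0.773). *Nos2* was at 8.15 in *Zfp36*ΔARE replicate 2 and between 18.7 and 22.7 in the other 4 (gap 0.728). Without *Zfp36*ΔARE replicate 4, the log2 fold change of *Arg1* was 0.83 (adjusted p = 0.0769).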

How the results depend on the processing

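Counts of called members (29 in the report) stayed within 1.5 times, from 26 to 31, under DESeq2, limma-voom, upper-quartile scaling, DESeq2's size factors in edgeR, either filter, non-robust dispersions and the replicate block. Leaving out each library gave 23 to 32 called members, 824 to 1499 of all tested genes (1292 in the report; 824 without WT replicate 3), 32 to 46 other macrophage and phagocyte genes (42 in the report) and 9 to 11 members relative to *Ptprc* (10 in the report). Without WT replicates 1 and 3 together, 17 members, 513 of all genes and 20 other macrophage genes were called. Testing against a fold of 2 with glmTreat called 0 members, 0 of all genes and 0 other macrophage genes (17, 577 and 25 at an unadjusted p under 0.05), so calls rest on fitted folds over 2. With *Zfp36*ΔARE replicate 1 alone the median log2 fold change was -1.31 over the members, -0.0092 over all tested genes and -0.63 over the other macrophage genes. Relative to *Ptprc* the members' median was -0.53 in that setting. With the hair shaft, skeletal muscle and adipocyte scores as covariates, 0, 0 and 0 members, 8, 2 and 0 of all genes, and 0, 0 and 0 other macrophage genes were called (unadjusted members 27, 33 and 7; all genes 2230, 2720 and 1369; other macrophage genes 49, 64 and 21), and the cause was not tested. The replicate block called 26 members, losing *Fcgr1*, *Msr1* and *Ncf4*, and 8 relative to *Ptprc*, of which 2 were lower. The 3 members lower relative to *Ptprc* became 6 with DESeq2, 2 without WT replicates 1 and 3, 2 to 4 with a library left out and 0 with *Zfp36*ΔARE replicate 1 alone. With *Csf1r* in place of *Ptprc* 10 members passed, 1 lower and 9 higher, and the median over the 40 genes turned from -0.12 to 0.33. The replicate numbers did not pair the libraries, since deviations of same-numbered libraries correlated at -0.19 to 0.085.

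Among single genes not scaled to *Ptprc*, direction changed only in scarce genes and in *Arg1*. *Vsig4* (0.07) ranged from -0.14 to 0.81 with a library left out and was at -0.10 without WT replicates 1 and 3, -0.65 with *Zfp36*ΔARE replicate 1 alone, and -0.18, -0.51 and -0.68 with the hair, muscle and adipocyte scores. *Nos2* (-0.31) was at 0.37 without WT replicates 1 and 3 and at 0.69, 0.71 and 1.30 with the 3 scores. *Marco* (0.70) was at -0.70 and -1.13 with the muscle and adipocyte scores, and *Arg1* (1.09) at -0.64 with the adipocyte score. *Marco*, *Vsig4*, *Nos2* and *Cx3cr1* had at most 142 counts in any library, which limits what could be detected for them.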

Other observations

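Other leukocyte markers did not share one direction. The Langerhans and dendritic cell list held 1 of 12 genes called lower, *Batf3*, a factor of cross-presenting dendritic cells (log2 fold change -1.10, adjusted p = 0.0413), and its median was -0.60. The summed level of the same list was 5710.0 to 6218 normalized counts in WT and 7334 to 8021 in *Zfp36*ΔARE libraries, but its most abundant gene, *Mycl*, carried that difference. The mean (± SD) of *Mycl* was 2215 ± 517 over the 5 WT and 4080.3 ± 286 over the 5 knockin libraries, and without it the sum was 3322 to 4590.5 and 3281 to 3871. The median of 10 T cell markers was -0.058. The summed level of 12 neutrophil markers was 1490 to 3565 normalized counts in WT and 2959 to 6960 in *Zfp36*ΔARE libraries, ranges that overlapped. Of these markers 6 passed the filter on low counts, with a median of -0.43. Among them *Csf3r*, the receptor for granulocyte colony-stimulating factor, was called lower (-1.39, adjusted p = 0.0122) and *Padi4*, the enzyme that citrullinates histones, higher (1.41, adjusted p = 0.0196). These 3 genes and *Mycl* were named after their values were seen.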
